A study of Mus musculus with 54 samples.

Results

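Clone G is 1 of 23 clones of 4T1, a mouse mammary carcinoma line that spreads from the mammary gland to the lung and other organs, and each clone was grown from a single sorted cell. It was taken as the 2 libraries labelled Clone 4T1-G, lettered A and B, which are 2 of the 46 clone libraries and 2 of the 54 libraries of the series, and it was compared with the 44 libraries of the other 22 clones. The labels call clone G non-intravasating, as they do 20 of the 22 others, while clones E and T are called intravasating, which means that their cells entered the blood stream when the clones were followed in a pool. All clones carried the same parental background, were grown in 1 serum-containing medium and are given no drug or genetic change in the labels. The other 8 libraries came from 2 orthotopic tumors (Tumor_1, Tumor_2) and 2 lung metastases (Lung_1, Lung_2), may hold host cells, and were used only to look up levels. Clone G stands for 1 founder cell, so nothing here separates what belongs to that founder from what a group of such clones would share.

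Tumor cells can themselves make the proteins of innate defence. Signals through NF-kB and C/EBP factors raise acute phase proteins and the chemokines that draw neutrophils, and type I interferon, through factors that include STAT2 and IRF9, raises a broad set of antiviral genes. The 4T1 line is known for provoking a strong rise of neutrophils in mice. Clone G was labelled inflammatory from 3 genes, Lcn2, Saa3 and Ifi44, and all 3 had their highest level of the 23 clones in it. Their values below are therefore a description of that choice.

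Clone G had 17481432 and 19070023 reads in its 2 libraries, within the range of 8849257 to 31609870 in the other clones, and 15013 and 15096 genes with a read, against 14130 to 16807. Across genes the correlation between the 2 libraries was 0.995, within the range of 0.990 to 0.998 over the 23 clones. The median gene of both clone G libraries, 8.829 and 8.868 on the deposited log2 scale, stood above that of every other clone library (8.668 to 8.827). Levels below are normalized counts, recovered from the deposited log2 values, each level of another clone is the mean of its 2 libraries, and each difference is that between clone G and the mean of the other 22 clones on the deposited log2 scale, where the differences of low genes are compressed.

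Tested on 1 value per clone with limma, clone G differed from the other 22 clones in a small share of 13637 genes. At an adjusted p under 0.05, 505 genes were higher (3.7% of those tested) and 225 were lower (1.65%), and 2488 had an unadjusted p under 0.05. Of the 505 higher genes 75 were among 94 that passed the filter on low values only through clone G, so their direction was set by the filter, and they are described by their levels with no p. With the filter applied to the 44 other libraries alone, 402 genes were higher and 204 lower. The spread in this test is that between the 22 other clones, and clone G, a single value, is assumed to vary like them. In 491 of the 505 both clone G libraries lay above all 44 others, and in 208 of the 225 both lay below, while this held for 961 (7.05%) and 610 (4.47%) of all tested genes. Clone G had the highest mean of the 23 clones in 1634 genes (12%) and the lowest in 1360 (9.97%). The next clone by genes at the top was J with 1330, and clone E was at the top in 46. When each library was centred on its median gene, the median difference moved from -0.01 to -0.11, and the calls changed from 69.2% higher to 50.9% higher, with 390 higher and 377 lower. The share was 56.1% with log2(normalized count + 1) and 59.0% after quantile normalization, so the balance between higher and lower genes differed between scalings. Against the spread between the 2 libraries of a clone alone, 4001 genes (29.3%) were higher and 3839 (28.2%) lower in clone G. The labels do not say whether the 2 libraries came from separate cultures, so that test measures only the spread between libraries, which may be technical.

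**Figure D1:**
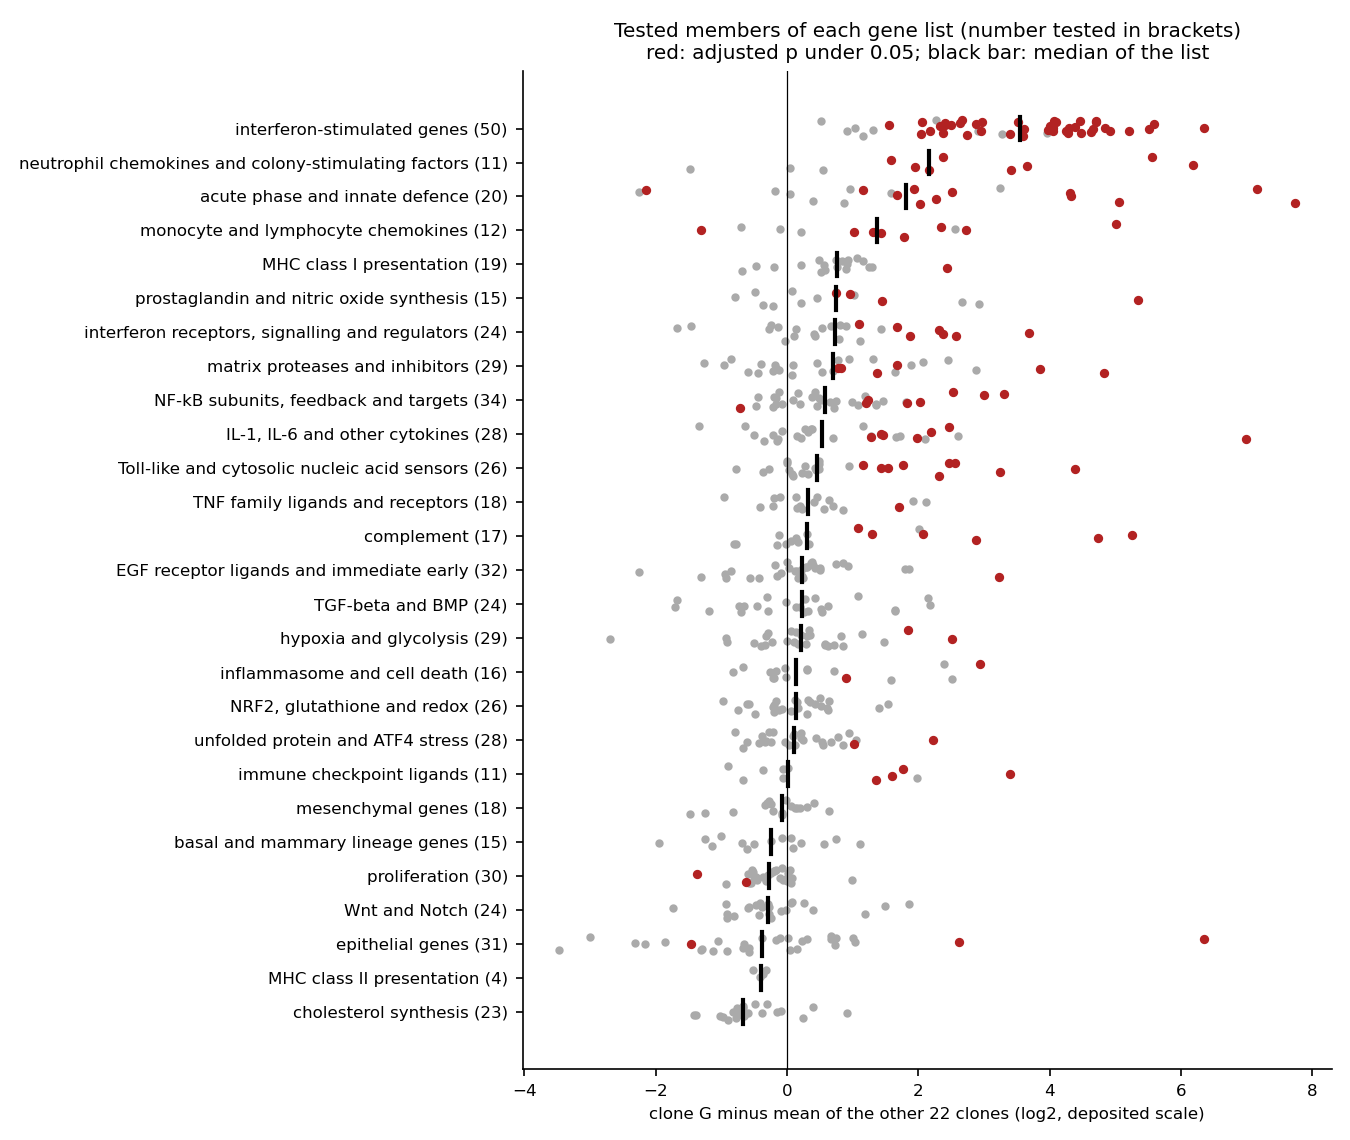
Difference between clone G and the mean of the other 22 clones (log2, deposited scale, x axis) for each tested member of 27 gene lists (y axis, number tested in brackets). Red points have an adjusted p under 0.05, grey points do not, and the black bar is the median of the list. The interferon-stimulated genes have the largest median on this scale, 3.56, followed by the neutrophil chemokines and colony-stimulating factors at 2.17 and the acute phase genes at 1.81, while with log2(normalized count + 1) the acute phase genes have the largest (4.90 against 4.51 and 3.76). Of the 20 acute phase genes 6 passed the filter only through clone G, so their direction was set by the filter. With the filter on the other libraries alone the deposited-scale medians were 3.56, 2.17 and 1.06 in the same order. Red points include genes that passed the filter only through clone G.

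For this and each list below, the counts of called members stand beside 3.7% higher and 1.65% lower over all tested genes. Acute phase and innate defence genes were called in part. Of 20 tested members 11 were higher and 1 was lower, but 6 of the 20 passed the filter only through clone G. With the filter on the other libraries alone 5 of 14 were higher and 1 lower, with a median difference of 1.06, and the median over all genes tested was -0.01. These 5 were Lcn2 and Saa3, which gave clone G its label, and Lbp, S100a8 and Steap4. Lcn2 encodes lipocalin 2, which binds bacterial siderophores, and its gene (GRCm38, chromosome 2, 32384637 to 32387739) is read from the minus strand. It had 49769.7 normalized counts in library A of clone G and 29051 in library B, whereas the other clones ran from 0 in clone P through a median of 54.1 to 5850.4 in clone F. No other library overlapped with clone G, and the difference was 7.74 ± 1.87 (SE, limma). With log2(normalized count + 1) the call of Lcn2 was lost. Saa3 (chromosome 7, 46711998 to 46719615, minus strand) encodes a serum amyloid A that cells outside the liver make. It had 6806 and 4682 counts in clone G, and in the others a lowest level of 0, a median of 1.24 and a highest of 23.04 in clone F, so clone G stood 249 times above the next clone. Its difference was 7.17 ± 0.27 on the deposited scale, which compresses low levels, and 6.90 to 11.3 over all alternatives. Lcn2 and Saa3 gave clone G its label, so no p is given for them. Clone F, the runner-up for both genes, was the highest of the other clones for 7 of the 20 members.

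Chi3l1, a chitinase-like secreted protein, had 674 and 588 counts against at most 2.7 in any other clone, and so passed the filter only through clone G. Steap4, a metalloreductase of iron and copper, had 1688 and 1214 counts in clone G and 1321 in clone F, with a median of 1.05 over the others, and the libraries of G and F overlapped. The calgranulin S100a8, a calcium-binding protein abundant in neutrophils, had 900.2 and 809 counts against a highest value of 94.7 in clone O. Metallothionein Mt1, which binds zinc and copper, was the 1 member called lower, with 242 and 176 counts against 248 to 2359 (adjusted p = 0.037, limma). The call was lost without library B of clone G and after each chromosome was centred (adjusted p = 0.219), and over all alternatives the adjusted p lay between 0.00348 and 0.219. Mt2 (-2.25) and Orm3 (-0.18) also had negative differences and were not called, while 17 of the 20 members had positive ones. Slpi, an inhibitor of neutrophil elastase, had 9505 and 9154 counts but was higher in clone D (10949), and its difference of 3.25 ± 2.29 was not called (adjusted p = 0.496).

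Promoters of these genes are shown because the letters TTGCNNAA, a C/EBP-like motif searched on both strands, occurred in 13 of the 18 acute phase members with a promoter in the RefSeq table (72.2%). In 10657 tested genes with a promoter the share was 10.2%, in the 383 higher genes with one it was 17.2%, and in the 171 lower ones 7.6%. The windows searched were 300 bases long, from 250 before to 50 after the gene start (for Saa3 the table's start lies inside the span given above), and a match is a description of letters, not of a bound site. The 250 bases before the start are printed 5′ to 3′ on the gene's strand, with matches in capitals. Lcn2 at chr2:32387740-32387989 holds TTGCTCAA with its first base 216 before the start. Saa3 at chr7:46715677-46715926 holds a match of the other strand, printed as TTATGCAA, 99 bases before the start, and a match to interferon-response-like letters (2 GAAA words with 2 bases of any kind between them) 125 before it.
Lcn2: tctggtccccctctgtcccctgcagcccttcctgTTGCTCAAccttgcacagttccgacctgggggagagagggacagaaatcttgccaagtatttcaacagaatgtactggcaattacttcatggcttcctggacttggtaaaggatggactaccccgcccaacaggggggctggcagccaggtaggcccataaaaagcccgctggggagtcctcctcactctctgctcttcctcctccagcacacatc
Saa3: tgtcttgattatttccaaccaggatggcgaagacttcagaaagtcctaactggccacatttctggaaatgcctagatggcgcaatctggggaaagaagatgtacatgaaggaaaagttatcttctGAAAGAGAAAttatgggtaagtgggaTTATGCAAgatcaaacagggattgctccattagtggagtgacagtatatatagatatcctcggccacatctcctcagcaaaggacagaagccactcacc

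**Figure D2:**
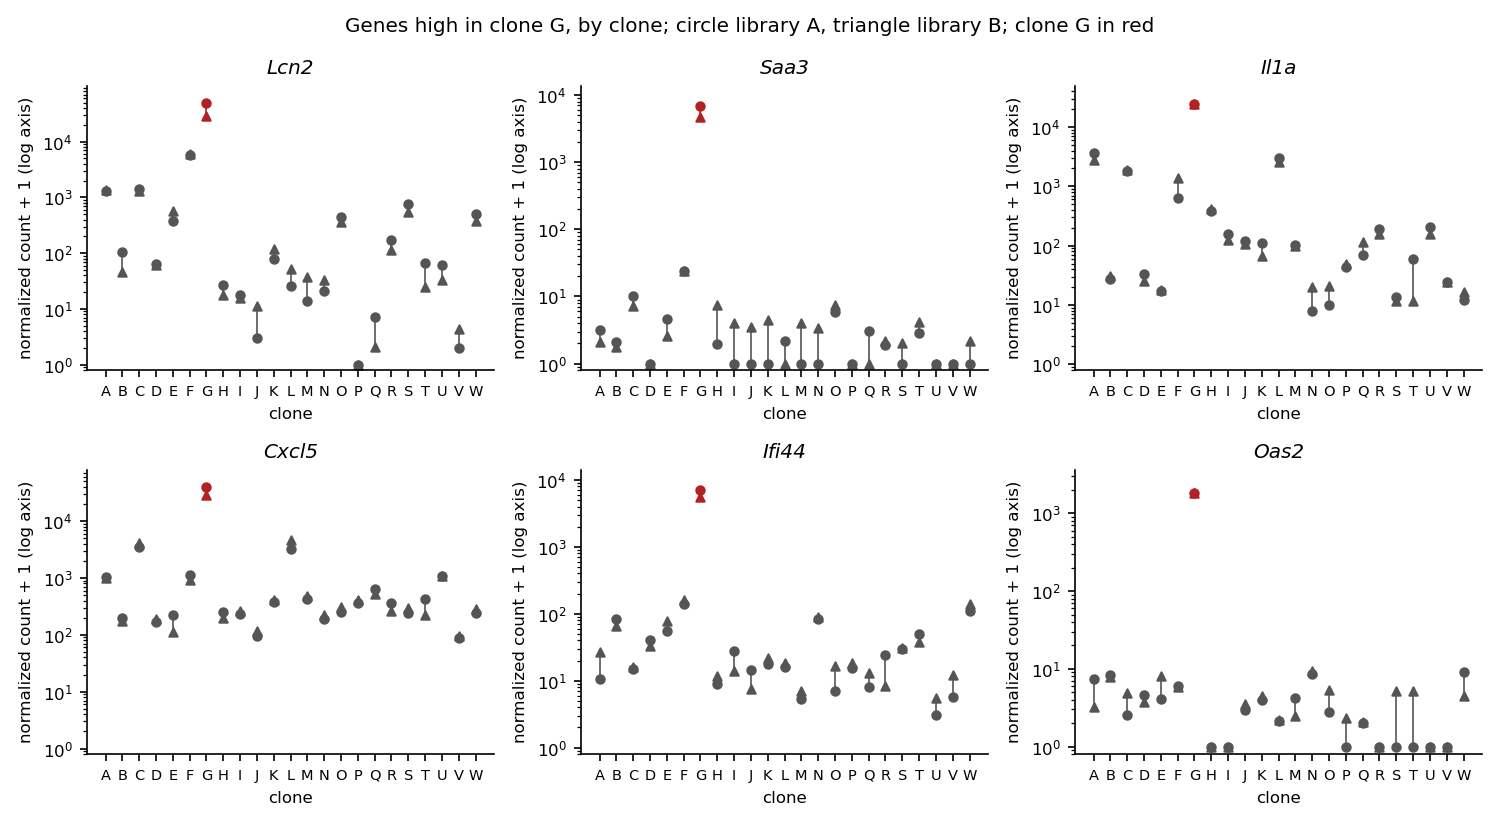
Normalized count plus 1 (log axis) of 6 genes in the 23 clones (x axis), with library A as a circle, library B as a triangle and clone G in red. In each panel both libraries of clone G lie above all other libraries, with the next clone being F for Lcn2, Saa3 and Ifi44, A for Il1a, L for Cxcl5 and N for Oas2. Oas2 passed the filter only through clone G.

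Complement genes rose in part. Of 17 tested members 6 were higher and 0 lower, with a median difference of 0.31. C3, the central component of all complement pathways, had 13657 and 10131 counts in clone G against a lowest level of 11.2, a median of 229 and a highest of 3327 in clone C, a difference of 5.26 ± 1.37 (adjusted p = 0.0223). C1s, a protease of the classical pathway, had 1744 and 1481 counts against a median of 5.3 and at most 222 in clone F (adjusted p = 0.000641). Its partner protease is encoded by 2 near-identical genes, C1ra (575 and 441 counts against at most 117) and C1rb (218 and 136 against at most 37.1), between which reads cannot be assigned with certainty. The subunits of C1q, C1qa, C1qb and C1qc, were at 0 to 1 read in each clone G library. With log2(normalized count + 1) the calls of C3 (adjusted p = 0.0688) and C1ra (0.0695) were lost, and 3 of the 17 remained called. Over all alternatives the adjusted p of C3 ran from 0.00619 to 0.0688.

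Of 11 tested neutrophil chemokines and colony-stimulating factors 8 were higher and 0 lower, with a median difference of 2.17. Cxcr2, Csf1 and Kitl were not called, and Kitl, the ligand of KIT, lay below the other clones' mean (-1.47 ± 0.63, adjusted p = 0.209, limma). With log2(normalized count + 1) 6 of the 11 were higher. Cxcl5, a ligand of the neutrophil receptor CXCR2 (chromosome 5, 90759298 to 90761625), had 39533 and 29023 counts in clone G. In the other clones it ran from 91.9 through a median of 297 to 3954 in clone L, and the difference was 6.19 ± 1.21 (adjusted p = 0.00191). Cxcl1, another CXCR2 ligand, had 14204 and 18209 counts against a median of 209.7 and a highest of 2165, again in clone L (difference 5.56 ± 1.22, adjusted p = 0.006). Cxcl2 had 520.2 and 596 counts against a median of 4.78 and at most 28.3 (difference 3.65 ± 0.29). Its standard error was the smallest of the 3 on the deposited scale, which compresses low levels, and its difference ran from 3.53 to 6.57 over all alternatives. Cxcl5, Cxcl1 and Cxcl2, with Ppbp and Cxcl3, form 1 run on chromosome 5 from 90759298 to 90905938, in which all 5 tested genes were higher in clone G. Csf3 encodes G-CSF, the growth factor of neutrophils, and had 5318 and 4519 counts against 2995 in clone C and a median of 317 (adjusted p = 0.0182). Csf1, the macrophage growth factor, was not called, with 5465 counts against a median of 3908 (adjusted p = 0.655).

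The promoters of Cxcl1 and Cxcl2 are shown because both carry GGGAATTTCC, a match to kB-like letters (GGG, 2 bases of any kind, T, 2 of any kind, CC, either strand). It begins 71 bases before the start in Cxcl1 (chr5:90890995-90891244, plus strand) and 97 before it in Cxcl2 (chr5:90903649-90903898, plus strand), and each promoter holds another match, GGAAACACCC on the other strand of Cxcl1 at 89 and GGGCTTTTCC in Cxcl2 at 78.
Cxcl1: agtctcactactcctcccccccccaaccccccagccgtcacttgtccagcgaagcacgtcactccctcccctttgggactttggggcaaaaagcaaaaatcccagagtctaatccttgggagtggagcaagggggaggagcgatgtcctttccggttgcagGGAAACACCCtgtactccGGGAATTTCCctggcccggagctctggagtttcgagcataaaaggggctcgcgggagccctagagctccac
Cxcl2: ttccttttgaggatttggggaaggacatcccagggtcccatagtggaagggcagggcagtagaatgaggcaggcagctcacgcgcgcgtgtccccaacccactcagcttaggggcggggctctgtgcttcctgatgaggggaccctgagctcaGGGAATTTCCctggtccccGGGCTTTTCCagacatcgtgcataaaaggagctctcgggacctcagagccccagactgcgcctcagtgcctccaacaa
The kB-like letters are common. They were found in 5 of the 9 members of this list with a promoter (55.6%) and in 14 of 26 members of the NF-kB list (53.8%), but in 26.9% of the promoters of higher genes and 26.7% of those of all tested genes.

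Among chemokines for monocytes and lymphocytes 7 of 12 tested members were higher and 1 lower, with a median difference of 1.37, and 2 of the 12, Ccl3 and Cxcl9, passed the filter only through clone G. With the filter on the other libraries alone 5 of 10 were higher, and with log2(normalized count + 1) 4 of 12 were. Ccl2, which recruits monocytes through CCR2, had 6095 and 5032 counts against a range of 2.04 (clone M) to 751 (clone T) and a median of 158. Its difference was 5.01 ± 1.36 (adjusted p = 0.0295), and with log2(normalized count + 1) the adjusted p was 0.162, the highest over all alternatives, of which the lowest was 0.0213. Ccl7, a close relative of Ccl2, had 321 and 172 counts against at most 24.5, and its call was lost with log2(normalized count + 1) (adjusted p from 4.73e-05 to 0.0566 over all alternatives). Cxcl10, a ligand of CXCR3 on T cells that interferon raises, had 820.3 and 622 counts against 392 in clone F (adjusted p = 0.0274), a call also lost on that scale and with log2(normalized count + 8) (from 0.00834 to 0.071 over all alternatives). Ccl3 was found in clone G at 67.8 and 49.8 counts and reached no more than 0.544 in any other clone. Cxcl10, Cxcl11 and Cxcl9 neighbour each other on chromosome 5, and all 3 were higher. Ccl25, a chemokine of gut-homing T cells on chromosome 8, was lower (14.9 and 29.7 against 70.2 to 177), but no member was called lower after each chromosome was centred.

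Of 28 tested cytokines and cytokine receptors 7 were higher and 0 lower, with a median difference of 0.54, and 2 of the 28, Il6 and Il1rn, passed the filter only through clone G. With the filter on the other libraries alone 5 of 26 were higher, with a median of 0.37. Il1a encodes interleukin 1 alpha, an alarm cytokine active in its uncleaved form, and its gene (chromosome 2, 129299609 to 129310186) is on the minus strand. It had 24324 and 24513 counts in clone G, against 11.7 in clone S at the lowest, a median of 89.8 and 3181 in clone A at the highest (difference 6.99 ± 1.75, adjusted p = 0.0173). With log2(normalized count + 1) the call was lost (adjusted p = 0.0542, against 0.00567 at the lowest over all alternatives). Clones L and C also stood far above the median of Il1a, as the plot of 6 high genes shows. Il6, a main inducer of acute phase genes, had 145 and 135 counts against at most 3.59 in any other clone. Il11, another cytokine that signals through gp130, had 348 and 527 counts against at most 249, in clone E. The call of Il11 was lost without library B of clone G, with log2(normalized count + 1) and + 8, and after each chromosome was centred. Over all alternatives its adjusted p ran from 0.0145 to 0.121 (limma). Il13ra1, a receptor chain for interleukin 13 on chromosome X, had 2532 and 2333 counts against at most 1009.9, a call that was lost after each chromosome was centred (adjusted p from 0.00358 to 0.0641 over all alternatives). Il1b had 107 counts against a median of 4.75 and was not called (adjusted p = 0.114).

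Of 34 genes of NF-kB signalling 7 were higher and 1 lower, with a median difference of 0.58. After each chromosome was centred 5 were higher and 0 lower, and with log2(normalized count + 1) 4 were higher. The subunits themselves were not called: Nfkb1 had 1831 counts against a median of 1613, Nfkb2 807 against 858, and Rela 774 against 879. Higher genes included Ikbke, a kinase of the interferon and NF-kB pathways (1014 and 1033 counts against at most 305, adjusted p = 2.2e-06), and Cebpd, a C/EBP factor of the acute phase response (531 and 360.3 against at most 80.5, adjusted p = 9.83e-08). They also included feedback genes, namely Tnip3, a partner of A20 (598 counts against a median of 14.03, adjusted p from 8.94e-05 to 0.0964 over all alternatives, lost with log2(normalized count + 1)), and Zc3h12a, an RNase that degrades cytokine mRNAs (445 against 51.2). Cyld, a deubiquitinase that restrains the pathway and lies on chromosome 8, was the lower one (1061 and 1181 counts against 1643 to 2376), and its call was lost after each chromosome was centred. In the TNF family 1 of 18 was higher, the death receptor Fas (233 and 183 counts against at most 118), whose call was lost in 6 alternatives, leaving out library A of clone G among them (adjusted p from 0.0175 to 0.205). That 1 of 18 stands beside 3.7% higher over all tested genes. Tnf itself was not called, with at most 58.9 counts in another clone (adjusted p = 0.196).

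Most interferon-stimulated genes were higher in clone G. All 50 tested members of 51 listed had a positive difference, 41 were higher and 0 lower, and the median difference was 3.56, the largest of the lists on the deposited scale. With log2(normalized count + 1) it was 4.51, below the 4.90 of the acute phase list, of whose 20 tested members 6 passed the filter only through clone G. In 46 of the 50 both clone G libraries lay above all 44 others, against 7.05% of all tested genes, and 4 of the 50 passed the filter only through clone G. The count of 41 was also 41 after each library or each chromosome was centred, 42 after quantile normalization and 38 with log2(normalized count + 1). With the filter on the other libraries alone it was 38 of 46. Ifi44, an interferon-induced cytoplasmic protein (chromosome 3, 151730922 to 151749910), had 7026 and 5559 counts against a lowest level of 3.31, a median of 16.8 and a highest of 149 in clone F (difference 6.35 ± 0.60). It also gave clone G its label, so no p is given for it. Oas2 and Oas3 encode 2′-5′-oligoadenylate synthetases, which activate RNase L on double-stranded RNA. Oas2 had 1807 and 1809 counts in clone G and no more than 8.07 in any other clone, clone N, so it passed the filter only through clone G. Oas3 had 6408 and 6258 counts against a median of 58.2 and a highest of 250.1 in clone W (adjusted p = 4.86e-07). Trim30a, a TRIM protein that interferon raises, had 3353 and 2804 counts against at most 331 in clone F. Members that were not called included Ly6e (5508 counts against a median of 330.3, adjusted p = 0.0716) and Ifit2 (849 against 423, adjusted p = 0.264). Clone F was the next highest clone for 17 members, W for 12 and N for 8.

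Interferon-response-like letters, the same pair of GAAA words on either strand, were found in 20 of the 36 members with a promoter in the table (55.6%), in 18.3% of the promoters of higher genes, in 1.17% of those of lower genes and in 3.69% of those of all tested genes. Isg15, a ubiquitin-like protein, and Ifit1 and Ifit3, which bind viral RNA, are shown because their matches lie close to the start and in Isg15 overlap each other. Isg15 (chr4:156200819-156201068, minus strand) has 3 matches that begin 78, 72 and 66 bases before the start and print as 1 run of capitals. Ifit1 (chr19:34640639-34640888) and Ifit3 (chr19:34583279-34583528), both on the plus strand, share the same 2 matches of the other strand, printed as TTTCACTTTC and TTTCAGTTTC, and Ifit1 also has 2 overlapping kB-like matches.
Isg15: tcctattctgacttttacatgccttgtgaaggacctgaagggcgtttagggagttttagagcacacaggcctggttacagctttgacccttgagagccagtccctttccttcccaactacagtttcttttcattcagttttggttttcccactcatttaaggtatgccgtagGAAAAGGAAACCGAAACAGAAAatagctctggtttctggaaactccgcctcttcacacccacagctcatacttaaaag
Ifit1: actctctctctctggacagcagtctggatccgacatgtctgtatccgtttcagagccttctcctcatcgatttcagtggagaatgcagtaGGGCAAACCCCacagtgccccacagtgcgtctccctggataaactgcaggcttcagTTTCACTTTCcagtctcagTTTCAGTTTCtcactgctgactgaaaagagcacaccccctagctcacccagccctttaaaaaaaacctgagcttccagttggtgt
Ifit3: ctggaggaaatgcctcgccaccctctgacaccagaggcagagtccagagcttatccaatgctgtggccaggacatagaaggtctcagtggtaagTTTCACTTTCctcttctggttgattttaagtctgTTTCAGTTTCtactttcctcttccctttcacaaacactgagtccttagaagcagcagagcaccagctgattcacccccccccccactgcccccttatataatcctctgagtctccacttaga
Isg15 had 2172 and 2573 counts in clone G against a median of 168 and at most 580.1 (adjusted p = 0.00389, limma). Ifit1 had 3376 and 2614 against a median of 119.7 and at most 949 (adjusted p = 0.0276). Ifit3 had 1509.6 and 1639.5 against a median of 12.3 and at most 90.3 (adjusted p = 1.05e-07). The promoter of Ifi44 held none of the 3 motifs in this window.

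Upstream of these genes, 7 of 24 interferon receptors and signalling genes were higher and 0 lower, with a median difference of 0.73. Of the factors that type I interferon activates, Stat2 had 2606 and 2400.2 counts against 216 to 982 (adjusted p = 0.0029), and Irf9 had 1002 and 1000.3 against 84.3 to 241 (adjusted p = 1.54e-05). Irf7, the factor that amplifies interferon production, had 1023 and 1138 counts against a median of 27.1 and at most 97.3. Irf1, which interferon gamma raises, was not called (1883 counts against a median of 909.6 and a highest of 1866, adjusted p = 0.367, limma). Which interferon, if any, underlies these levels was not tested. Ifnb1, the gene of interferon beta, was below the filter and untested, with 7.43 and 2.62 counts in clone G and at most 0.765 in any other clone. Of 26 sensors of microbial molecules 9 were higher and 0 lower. They included Zbp1, a sensor of Z-form nucleic acid (1472 and 1244 counts against at most 136), the RNA sensor Ifih1 (2158 and 1699 against at most 612) and its relative Dhx58 (820.3 and 691 against at most 260.3). Cd14, a coreceptor for lipopolysaccharide, had 2115 and 1283 counts against at most 219 (adjusted p = 2.57e-08), while its partner Tlr4 was not called (658 against a median of 422, adjusted p = 0.574).

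**Figure D3:**
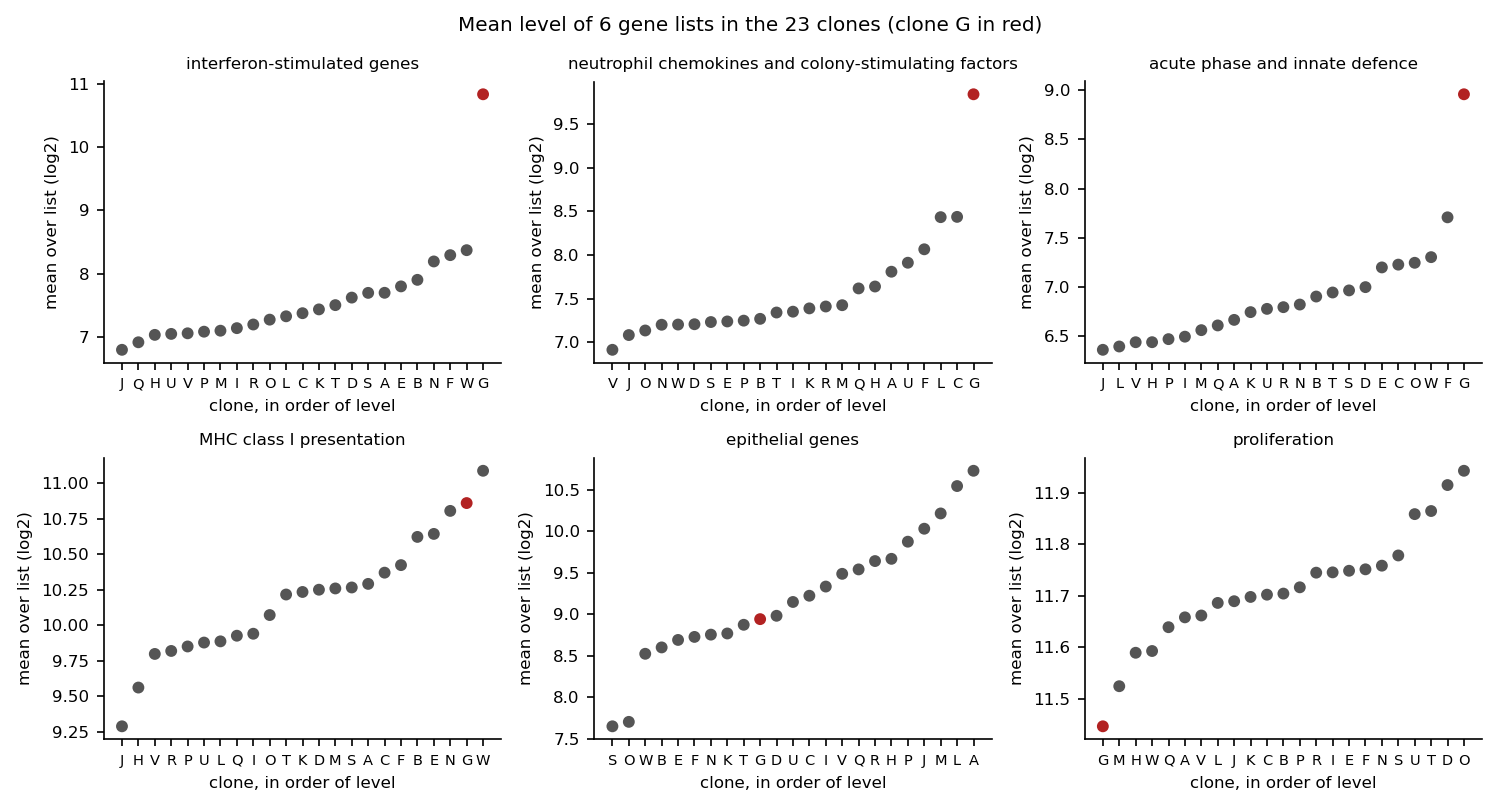
Mean log2 level (y axis) over the tested members of 6 gene lists in each of the 23 clones, ordered by level (x axis), with clone G in red. Clone G is the highest for the interferon-stimulated genes (10.8 against 8.37 in clone W), the neutrophil chemokines (9.84 against 8.44 in clone C) and the acute phase genes (8.96 against 7.71 in clone F), lies below clone W for MHC class I presentation, is in mid-order for epithelial genes and the lowest for proliferation genes.

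Of 19 tested MHC class I genes 1 was higher, a share near the 3.7% of all tested genes. It was H2-T23, a class Ib molecule (2242 and 2196 counts against at most 799 in clone W, adjusted p = 0.00752), although the H2 genes are similar enough for reads to be misassigned. The list mean was 10.9 in clone G and 11.1 in clone W, which was the highest of the other clones for 11 of the 19 genes. B2m, the light chain of class I, had 27005 counts against a median of 16174 (adjusted p = 0.385), and Psmb9, an immunoproteasome subunit, had 218 against 324 (adjusted p = 0.953). No class II gene was called among 4 tested, with Cd74, the invariant chain, at 21.7 counts against a median of 39.3 and H2-DMa at 46.9 against 74.8. Of 11 ligands of immune checkpoints 4 were higher. Lgals9, or galectin 9, had 2659 and 2986 counts against at most 1000.2, and Cd274, which encodes PD-L1, had 334 and 331 against at most 131 (adjusted p = 0.0089). Cd47 on chromosome 16 (7882 and 6116 against at most 4263) and Pvr on chromosome 7 (2512 and 2704 against at most 1429.6) were called, but not after each chromosome was centred (adjusted p = 0.166 and 0.110, the highest over the alternatives of each, of which the lowest were 0.00753 and 0.0235, limma). The call of Pvr was also lost after each library was centred on its median gene. Aim2, which detects cytosolic DNA, had 275 and 253 counts against at most 11.2, passing the filter only through clone G, and Ripk1, a kinase of cell death and inflammation, had 1289 and 1429.7 against at most 1049.8. They were the 2 higher genes among 16 of inflammasome and cell death. The call of Ripk1 was lost after each library was centred on its median gene and after quantile normalization (adjusted p from 0.0124 to 0.0508 over all alternatives, limma). With the filter on the other libraries alone 1 of 15 was higher, and over all tested genes the share was 3.7%.

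Nitric oxide synthase 2, Nos2, which makes nitric oxide in inflamed tissue, had 1681 and 1621 counts in clone G against a median of 1.25 and at most 45.8 in clone A (difference 5.35 ± 0.43, adjusted p = 1.32e-09). It was 1 of 4 higher genes among 15 of prostaglandin and nitric oxide synthesis, with the prostaglandin synthase Ptges2 (539.7 and 536 counts against at most 229.9), Ptgds (33.4 and 22.7 against at most 18.95) and the receptor Ptger2 (13.9 and 13.1 against at most 3.87). Ptger2 passed the filter only through clone G. The call of Ptgds was lost with log2(normalized count + 1), after each chromosome was centred (adjusted p = 0.109, the highest over its alternatives, of which the lowest was 0.00547) and without library A of clone G. Ptgs2, the inducible cyclooxygenase, had 28043 counts against a median of 4735 but varied widely between clones and was not called (adjusted p = 0.234). Of 29 matrix proteases and inhibitors 6 were higher and 0 lower, and 4 of 28 were higher with the filter on the other libraries alone. The collagenase Mmp13 had 3249 and 3649.8 counts against a median of 58.8 and at most 721 in clone C (adjusted p = 0.000919), the metalloprotease Mmp19 had 154 and 122 against at most 79.1 (lost with log2(normalized count + 1) and + 8, adjusted p from 0.00734 to 0.0943 over all alternatives), and the serpin Serpina3g had 827 and 556 against at most 59.3. Its close relative Serpina3f had 82.7 and 42.8 counts against at most 6.3, passed the filter only through clone G, and reads may be shared between them. Serpine2, an inhibitor of thrombin and plasminogen activators, was not called (4799 counts, with 9029.5 in clone F, adjusted p = 0.635). In each list of growth and metabolic genes at most 2 tested members were higher, beside 3.7% of all tested genes. Egfr, the EGF receptor, had 927 and 771 counts against at most 95.9 (adjusted p = 3.24e-05) and was the 1 called gene of 32 in its list. Hk2 and Pfkfb3, which drive glycolysis, had 5161 and 1746 counts against medians of 1318 and 244, and were the 2 called of 29 hypoxia and glycolysis genes. Slc7a11, the cystine importer, had 5072 and 4174 counts against at most 2003 (adjusted p = 0.000414), and Ppp1r15a, which restores translation after stress, had 329 and 352 against at most 203. They were the 2 called of 28 stress genes. None of 23 genes of cholesterol synthesis, 26 of the NRF2 pathway, 24 of TGF-beta and BMP, 24 of Wnt and Notch, 18 mesenchymal or 15 basal and mammary genes was called. Of these lists, members with the most reads in clone G were Cyp51 (2722 counts against a median of 5041) for cholesterol and the ferritin chains Fth1 (94221 against 79016) and Ftl1 (19281 against 14872) for NRF2. They were Skil (4030.3 against 3273) and Ltbp1 (3986 against 4692) for TGF-beta, and Notch2 (3093 against 3576) and Lrp6 (2680.4 against 2529) for Wnt and Notch. For the mesenchymal list they were vimentin, Vim (39237 against 52466), and S100a4 (19907 against 31937), and for the basal list Itga6 (7586 against 6699) and Sox9 (2011 against 2955). The smallest adjusted p of these 11 was 0.548, of Sox9 (limma).

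The other 2 of the 12 largest rises were in no list. Bcl2l15, a BCL2-like protein, had 2969.98 and 3233 counts in clone G against a median of 18.5 and at most 76.99 in clone L (difference 5.51 ± 0.43, adjusted p = 8.17e-10, limma). Ly6a, or Sca-1, a surface protein of stem cells that interferon raises, had 3182 and 2494 against a median of 19.7 and at most 163 in clone N (difference 5.28 ± 0.63, adjusted p = 1.9e-06).

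As a check of the labelled cell type, clone G held reads of the epithelial genes Krt8, Krt18, Epcam and Cdh1. Krt8, a simple-epithelial keratin, was lower (3274 and 3169 counts against 5076 to 12880.1, adjusted p = 0.0243) and its partner Krt18 was not called (5217 against a median of 12764, adjusted p = 0.0618). Epcam, an adhesion molecule, had 229 counts against a median of 2960.02 (adjusted p = 0.229), and E-cadherin, Cdh1, had 3929.9 against 10312 (adjusted p = 0.882). Ehf, an epithelial ETS factor, had 3926 and 3241 counts in clone G against a median of 1.12 and at most 96.9 in clone F (difference 6.35 ± 0.63, adjusted p = 6.32e-08). Claudin 1, Cldn1, had 259 and 191 against at most 21.1. Of the 31 epithelial genes these 2 were higher and Krt8 lower, beside 3.7% higher and 1.65% lower over all tested genes. Of 30 proliferation genes 2 were lower and 0 higher, the replication helicase subunit Mcm5 (1563 and 1766 counts against 2737 to 5843) and the mitotic kinase Cdk1 (3549 and 3405 against 4317 to 6398). The call of Cdk1 was lost without clone E, without clones E and T, after quantile normalization and after each chromosome was centred. Its adjusted p ran from 0.0159 to 0.225 over all alternatives (limma).

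Markers of leukocytes and stroma were checked beside the inflammatory genes. Of 14 lymphocyte and pan-leukocyte markers 9 were at 0 in both clone G libraries and Ptprc (CD45), present in all leukocytes, had 1 read in 1 library (a mean of 0.464 counts). The list summed to 27.9 and 31.5 counts against 1.83 to 31.8 in the other libraries, and its 1 tested member, Coro1a, was not called (26.1 against a median of 10.1, adjusted p = 0.216). Of 9 neutrophil markers 6 were at 0, among them Mpo and Elane, and the sum was 20.4 and 30.6 counts against 1.92 to 23.0 in the other libraries. The integrin Itgam, shared with the macrophage list, was at 14.9 and 21.9 counts against at most 7.89 and passed the filter only through clone G. Of 10 macrophage markers Fcgr1 and Marco were at 0 and Emr1 and Csf1r under 10 counts, while Cd68 was higher (486 and 489.7 against at most 249.97). The sum of the macrophage list was 584 and 590.2 counts against 118 to 489, mostly from Cd68. Of 12 fibroblast markers Lum, Col1a2, Col3a1 and Dpt were at 0, Dcn was higher (78.04 and 65.6 counts against at most 16.9), and Fap, which passed the filter only through clone G, was at 22.3 and 13.99 counts against at most 6.16. The sums of 799.9 and 723 counts lay within the 121 to 1843 of the others. Endothelial markers summed to 1526 and 1342 against 264 to 1035, while Vwf, Emcn and Cldn5 were at 0, and most of the sum came from Eng, a TGF-beta coreceptor that was not called (1508 and 1312 counts against at most 940.4, adjusted p = 0.0997). Tie1 had 11.7 counts against a median of 8.78 (adjusted p = 0.984). The part of these markers in the inflammatory genes was not tested. In bulk RNA a change in the share of cells and a change in RNA per cell cannot be told apart.

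**Figure D4:**
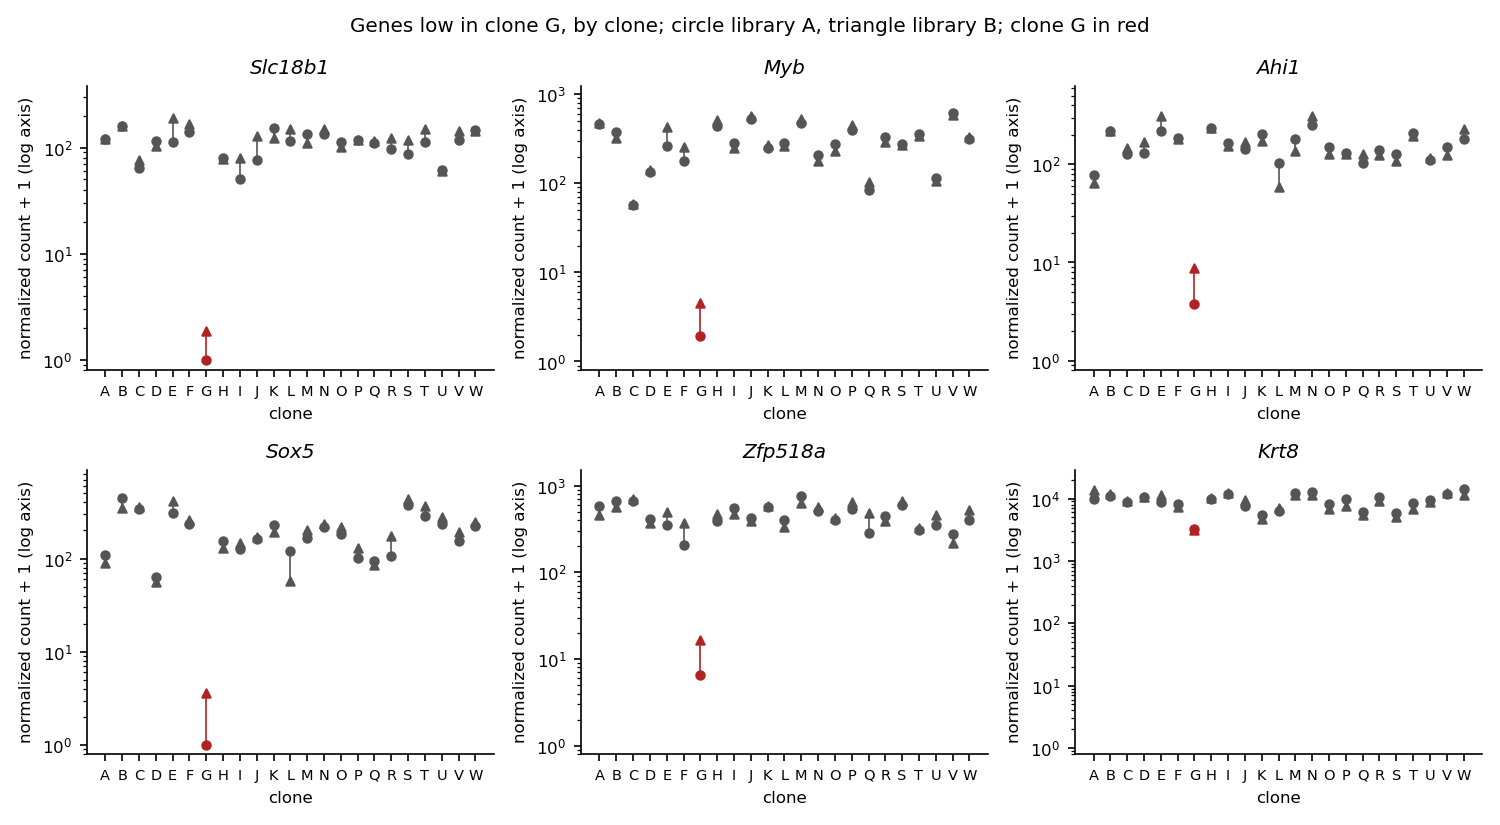
Normalized count plus 1 (log axis) of 6 genes that are low in clone G in the 23 clones (x axis), with library A as a circle, library B as a triangle and clone G in red. Clone G is below 4 counts for Slc18b1, Myb and Sox5, below 16 counts for Ahi1 and Zfp518a, and for Krt8 below all others by less than an order of magnitude.

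Among the genes most reduced in clone G, several were all but absent while every other clone expressed them. Slc18b1, a vesicular polyamine transporter, had 0 and 0.874 counts in clone G against 60.3 to 159 elsewhere (difference -2.27 ± 0.27, adjusted p = 2.39e-06). Myb, a transcription factor of progenitor cells, had 0.929 and 3.5 counts against 57.00 to 599 (adjusted p = 0.00458). Ahi1, a ciliary protein, had 2.79 and 7.87 against 69.8 to 281 (adjusted p = 0.000361). Ahi1 and Myb are neighbours on chromosome 10, at 20952232 to 21080429 and 21124930 to 21160984, and Slc18b1 lies further along at 23796859 to 23827969. Sox5, an SRY-related factor, had 0 and 2.62 counts against 58.2 to 405, and Zfp518a, a zinc finger protein, had 5.57 and 15.7 against 249 to 694 (adjusted p = 0.00322 and 4.95e-07). Cadps2, a regulator of vesicle release, had 0 and 2.62 counts but was also near absent in clone O (3.95). The remaining genes of the 12 largest reductions were Rhoj, Csgalnact1, an enzyme of chondroitin synthesis, the calcium pump Atp2c2, the phospholipase Pla2g16, the adaptor Gab1 and Mt1, with differences of -2.62, -2.48, -2.39, -2.21, -2.20 and -2.14. The calls of Atp2c2 (adjusted p = 0.0517) and Gab1 (0.128) were lost after each chromosome was centred, the highest values over the alternatives of each, with lowest values of 1.6e-05 and 0.00737. The call of Csgalnact1 was lost in 12 of 35 alternatives, 9 of them leaving out 1 clone (B, E, H, I, M, N, R, T or U), with adjusted p between 0.0101 and 0.177. Over the table, 9 genes had a mean of fewer than 10 counts over the 2 libraries of clone G and at least 30 in each of the other 22 clones.

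Lower genes were unevenly placed in the genome, a pattern looked for after the values were seen. Positions were found for 13558 of the 13637 tested genes. Chromosome 8 held 727 of them and 101 of the 224 lower genes with a position, so 13.9% of its genes were called lower against 1.65% of all tested. The median difference of clone G over chromosome 8 was -0.58, a ratio of 0.671, with 92.7% of its genes negative. It was -0.55 in library A and -0.53 in library B, whereas the other 44 libraries lay between -0.31 and 0.17. In 13 stretches of 10 Mb along the chromosome the median lay between -0.65 and -0.39, so the shift ran along its whole length. Of the 460 medians that 23 clones and 20 chromosomes give, this was the farthest from 0. Chromosomes 16, 18 and X stood the other way, with medians of 0.43, 0.36 and 0.42 in clone G against highest values of 0.37 (clone M), 0.27 (clone D) and 0.16 (clone S) in other clones. Clone G also lay outside the other clones, by less, on chromosomes 7 (0.23 against at most 0.17), 11 (0.21 against at most 0.18) and 10 (-0.19 against -0.17 at the lowest). By library it stayed outside on chromosome 7 only. On chromosome 11 its libraries (0.184 and 0.192) lay below the highest other library (0.199). On chromosome 10 library A (-0.177) lay above the lowest other library (-0.188). Chromosomes 16, 18 and X held 43, 48 and 44 of the 503 higher genes with a position, 10.2%, 13.4% and 10.3% of their tested genes against 3.7% of all. Lower genes on chromosome 8 included Csgalnact1, Atp2c2, Gab1, Mt1, Mcm5, Cyld and Ccl25, and higher genes on chromosomes 16, 18 and X included Mx1, Cebpd, Cd47, Cldn1, Cd14, Iigp1 and Il13ra1. When each chromosome was centred on its median in each library, 383 genes were higher and 148 lower, of which 347 and 93 were among the genes called before, and 8 of the lower ones lay on chromosome 8. What underlies the shift of these chromosomes was not tested.

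**Figure D5:**
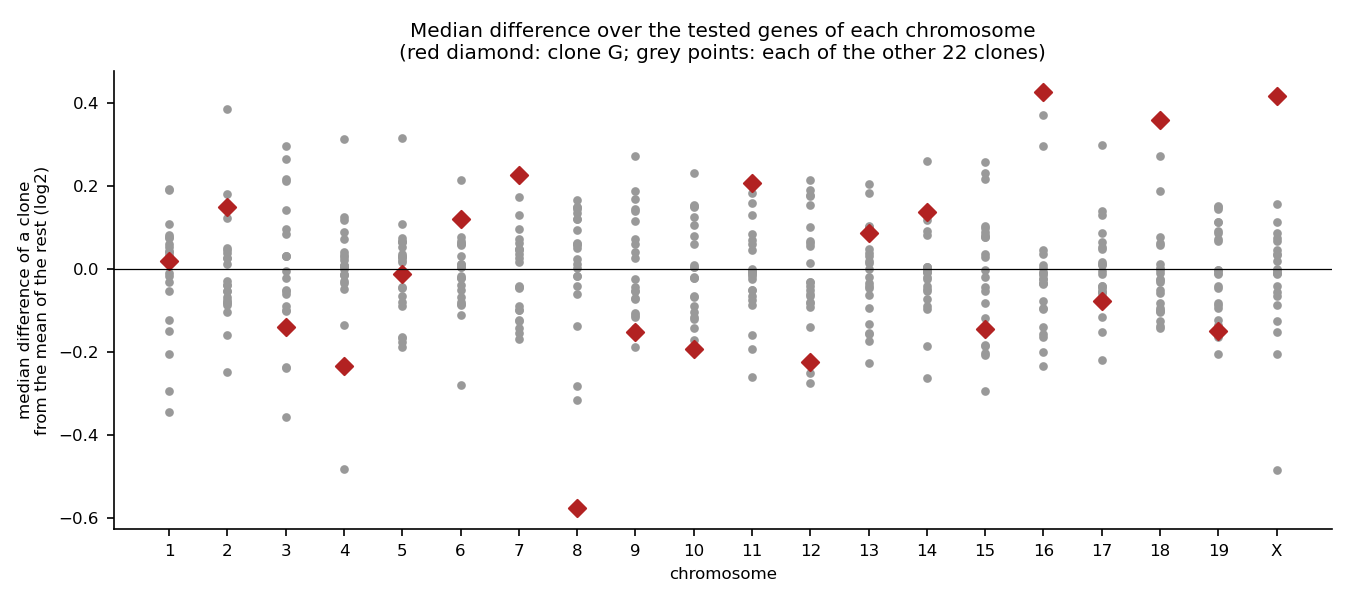
Median difference (log2, y axis) over the tested genes of each chromosome (x axis) between a clone and the mean of the remaining clones, with clone G as a red diamond and each of the other 22 clones as a grey point. Clone G is the lowest on chromosome 8 (-0.58) and the highest on chromosomes 16 (0.43), 18 (0.36) and X (0.42), and by smaller margins it is the highest on 7 (0.23) and 11 (0.21) and the lowest on 10 (-0.19).

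Higher genes also lay in local runs. With neighbours of at most 500000 bases between starts counted together, 141 of the 503 higher genes fell into 29 runs of at least 4. Of all 505 higher genes 75 passed the filter only through clone G, and the runs include such genes. The share of genes that would fall into runs by their spacing alone was not tested. The Gbp genes, large GTPases that attack pathogen vacuoles, gave a run on chromosome 3 from 142496934 to 142638008 in which all 5 tested genes were higher by 2.18 to 4.48. The Oas genes gave a run on chromosome 5 from 120730333 to 120907544 with 5 of 6 tested genes higher by 2.49 to 5.60. The Schlafen genes with Ccl9 and Ccl3 made a run on chromosome 11 from 82974316 to 83649378, with 7 of 15 higher, and the Ifi200 genes with Aim2 made another on chromosome 1 from 173349547 to 174031755, with 8 of 11. Ccl3, Aim2 and Oas2 passed the filter only through clone G. Genes within such a family are near copies of each other, and reads may have been shared between them. Lower genes fell into 13 runs, 9 on chromosome 8 and 2 in the histone clusters of chromosome 13. Of 57 tested replication-dependent histone genes 15 were lower and 0 higher, beside 1.65% lower over all tested genes. All 57 differences were negative, with a median of -0.76, while 6725 of all 13637 tested genes had a positive difference. Hist1h1b, a linker histone, had 498 and 533 counts in clone G against 1141 to 2029.8 elsewhere (adjusted p = 0.00362). After each chromosome was centred 10 of the 57 were lower. The histone genes were picked out after their values were seen.

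Looked up in the specimens, the orthotopic tumors held Lcn2 at 2112 and 2154 counts and Cxcl5 at 16222 and 11329.9, both below clone G and above the median clone. Saa3 was at 72.8 and 75.6 counts in the tumors and 16.3 and 28.9 in the lung metastases, and Il1a at 2722 and 3345 in the tumors but 33.2 and 67.3 in the lung. Of the interferon-stimulated genes, Ifi44 was at 207 and 218 counts in the tumors and 1803 and 8673 in the lung metastases, and Oas2 at 23.6 and 32.8 against 327 and 1666. Lung_2 thus had more Ifi44 than clone G. Ptprc, at 15.2 and 7.69 counts in the tumors and 13.7 and 63.2 in the lung, reached at most 8.46 in any other clone, and the part of host cells in the levels of the specimens was not tested.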

How the data were processed

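RNA-seq of 46 clone libraries, 2 of them of clone G, and 8 specimen libraries was used. Per the labels' protocols, 100 ng of total RNA was amplified with a NuGEN Ovation kit and sequenced with reads of 76 bases, and the submitters' processing notes name mm10, DESeq, HTSeq and Bowtie2. Neither their versions nor the strand rule of the counting is given in the sources used here, so overlapping, antisense and near-identical genes cannot be told apart. A single table, as the authors deposited it, holds log2 expression of 23481 genes for all 54 libraries. Its values follow a variance-stabilising curve with a gene without reads at 5.03, and inverting it gave normalized counts that were whole reads in 100% of values (within 0.01). Recovered reads gave the depth, normalized counts gave the levels and the filter, and no count test was run.

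Every column belonged to a sample (0 left over). In 27 rows, 23 of them tested, the symbol is a date, and these are not named. Genes with at least 10 normalized counts in at least 2 clone libraries were tested (13637). Tests ran in R 4.3.3 with limma 3.58.1 (variance trend, two-sided, Benjamini-Hochberg over all tested genes, threshold 0.05), checked on simulated data, on clone means (1 against 22) and, as a contrast, on the 46 libraries. The clone, its markers and the 32 gene lists (783 genes, 786 of 791 entries found) were chosen with earlier results of these data known, and so were Lcn2, Saa3, Ifi44, Il1a, Cxcl5, C3, Cxcl1, Ccl2, Slpi and Serpine2, whose values are therefore a description. Named genes were the 12 largest called differences each way with at least 50 counts on the higher side, up to 4 called members of each list (where none was called, the 2 with the highest level in clone G), and these 10. Other members, called or not (S100a8, Isg15, Ifit1, Ifit3, Ccl25 and Cyld among them), were chosen after their values were seen, and 1316 rows held no read. A few genes that the rule or the lists hold are not reported here. Positions and promoters are from RefSeq (GRCm38.p6, the build mm10), where 10657 of the tested genes had a promoter. Figures were drawn with matplotlib 3.10.9. Alternatives tried were other scales, filters, scalings and variance models, libraries and clones left out and the library letter as a block, with the filter on the other libraries alone and the centring of chromosomes added after seeing the data.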

Additional observations from a re-analysis of the deposited data

How the results depend on the processing

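The counts of higher genes on clone means (505) kept within 1.5 times in all 35 alternatives, and those of lower genes (225) in all but 2. With each library centred on its median gene 377 were lower, and with each chromosome centred 148 were, while the chromosomes' own shift is what that centring removes. Leaving out 1 clone or 1 clone G library gave 465 to 566 higher and 187 to 280 lower genes. Genes below all 44 others (610) became 1057 with libraries centred, and with only 1 clone G library kept they were 842 (library B) or 957 (library A), and genes above all others (961) 1202 or 1303, since 1 library is more often outside than 2. In the fit of 46 libraries 1 clone G library gave 3051 to 3198 higher and 2829 to 2970 lower genes. Of 80 named genes that were called, 0 reversed and 56 were called in all alternatives. Among 19 not called, the difference of Lrp6 changed sign to -0.0219 with libraries centred and -0.0367 with chromosomes centred, the difference of Vim to 0.16 after quantile normalization, and the difference of Tie1 to -0.0728 with libraries centred. With 1 library of clone G or 1 clone left out, it ran from -0.282 (without library A of clone G) to 0.14 (without library B) for Vim and from -0.0185 (without library B) to 0.0903 (without clone U) for Tie1. The calls of Lcn2, Il1a, C1ra, Ccl7, Tnip3 and Ptgds were lost with log2(normalized count + 1). Those of C3, Ccl2, Cxcl10, Mmp19, Fas and Il11 were lost on that scale and with log2(count + 8) too. The main fits did not pair the clones by the letters A and B. Deviations of the letters correlated between clones from -0.50 to 0.64 (median 0.08, above 0.1 in 113 of 253 pairs). For clone G with the other clones they correlated from -0.064 to 0.482. A letter effect shared by part of the clones was not tested. With the replicate block the 46-library fit called 4102 higher and 3952 lower.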

Other observations

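Genes best known from leukocytes were also high in clone G, although Ptprc was at a mean of 0.464 counts. They were noticed after their values were seen and were in no list. Il2rg, the common gamma chain of cytokine receptors, had 1133 and 1224 counts against at most 107 in clone Q (adjusted p = 7.42e-06, limma). Cd53, a tetraspanin of leukocytes, had 255 and 222 counts against at most 15.3, and Pilra, an inhibitory receptor of myeloid cells, had 1194 and 608 against at most 9.37. The integrin gene Itgb7 had 1083 and 1154 counts against at most 131. Selp, or P-selectin, had 1735 counts against 609.99 in clone S, the next clone, and F5, which encodes coagulation factor V, had 1536 against 522, again in clone S.

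Of 9 tested genes of the prolactin family, which in mice is mostly made by the placenta, 6 were higher in clone G and 0 lower, with differences from 0.82 to 4.02. Over all tested genes 3.7% were higher. The family was picked out after its values were seen, and the 6 include Prl8a9, which passed the filter only through clone G. Prl2c2, or proliferin, had 3265 and 2424 counts against a median of 101 and at most 940.4 in clone H. Prl8a9 had 189 and 176 counts against at most 3.48. Reads may be shared between near-identical Prl2c genes. Akr1c18, an enzyme that inactivates progesterone, had 251 and 234 counts and at most 1.49 in any other clone. Tfpi, an inhibitor of the tissue factor pathway, had 687 and 584 counts against at most 44.99, and Irg1, the itaconate-forming enzyme of activated macrophages, had 251 and 163 against at most 46.4 in clone F. Pilra, Prl8a9 and Akr1c18 passed the filter on low values only through clone G. In all, 373 of the 505 higher and 219 of the 225 lower genes were in none of the 32 lists.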
